A study of Mus musculus with 15 samples.

Results

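The genes described here encode the mouse cysteine-rich secretory proteins Crisp1, Crisp2, Crisp3 and Crisp4 and the related Crispld1 and Crispld2. They were found by gene symbol among the NCBI Gene IDs of a raw count table of whole mouse epididymis. The 6 genes are 6 of 41591 IDs in the table, and all 6 had enough counts to be tested. The study compared 7-week-old mice of 3 Plag1 genotypes. There were 5 homozygous mutants (Plag1 -/-, KO), 5 heterozygotes (Plag1 -/+, HET) and 5 wild-type mice (WT), each giving 1 library. Plag1 encodes a zinc finger transcription factor. The strain label of all 15 samples reads Brown Swiss, and the labels do not say which part of Plag1 the mutant allele lacks or in which cells it acts. The epididymides were rinsed in saline to remove sperm before RNA was extracted, and the libraries were made with a stranded mRNA kit.

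The epididymis is the long duct in which sperm leaving the testis mature, and its epithelium secretes proteins that coat them. Proteins of this family have an amino-terminal CAP domain, and the Crisp proteins also have a short, cysteine-rich carboxy-terminal domain that acts on ion channels in several species. Crisp1 is secreted by the mouse epididymal epithelium under androgen control, binds to sperm and takes part in their fusion with the egg. Crisp4 is likewise made by the epididymal epithelium and binds to sperm, where it inhibits the cation channel Trpm8. Crisp2 is made by developing germ cells of the testis and lies in the acrosome and tail of sperm. Crisp3 is known in the mouse mainly from salivary and lacrimal glands. Crispld1 and Crispld2 carry LCCL domains in place of the channel-acting domain, and Crispld2 is secreted by mesenchymal cells, as first described in fetal lung.

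The libraries held 25.29 to 41.96 M counts in KO, 23.62 to 33.8 M in HET and 20.3 to 27.82 M in WT. Plag1 stood at 8.17, 6.99, 7.9, 9.36 and 9.16 counts per 1000000 library counts (CPM) in the 5 KO libraries, and averaged 8.32 ± 0.972 CPM in KO, 10.1 ± 1.38 CPM in HET and 12.7 ± 0.869 CPM in WT (SD, n = 5 each). It was lower in KO than in WT, with a log2 fold change of -0.61 ± 0.10 (SE; edgeR quasi-likelihood test, Benjamini-Hochberg adjusted p = 0.00493), a call lost among animals numbered above 700 (-0.45 ± 0.13, edgeR adjusted p = 0.168) and with 1 surrogate variable estimated from the data (-0.47, edgeR adjusted p = 0.139). Genes of the initial segment and caput of the labelled organ were abundant, and the 13 listed markers summed to 56664 to 71717 CPM in KO, 60781 to 69550 CPM in HET, against 54288 to 64530 CPM in WT. The leading principal component, with 29.3% of the variance of log2 CPM, put 4 KO libraries at 26.8 to 48.5, whereas the library KO-738, at -17.8, was inside the WT range. KO-738 and HET-693 also carried 1.297% and 1.304% of their counts on ribosomal RNA genes, against at most 0.512% elsewhere. All WT animals have numbers above 700, while 3 KO and 2 HET animals have lower numbers, and the labels do not say what these numbers stand for. The labels name no batch. The p-values weigh a genotype difference against the spread between animals of the same genotype. The main fit holds no term for the number range, so such a difference can also carry that range.

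Crisp1, Crisp3 and Crisp2 lie on the minus strand of chromosome 17 in the mouse genome build GRCm38.p6. Crisp3 (NCBI Gene 11572) spans 40221777 to 40242288, Crisp1 (11571) spans 40293758 to 40319207, and Crisp2 (22024) spans 40764734 to 40794146. Only 51.5 kb separate Crisp1 from Crisp3. Pgk2, a germ cell glycolysis gene, lies on the far side of Crisp3, 13.2 kb from Crisp3 and 85.1 kb from Crisp1. Crispld1 (83691, plus strand, 17727029 to 17767235) and Crisp4 (78081, minus strand, 18114889 to 18145902) lie on chromosome 1, and Crispld2 (78892, plus strand, 119992438 to 120052794) lies on chromosome 8. The exons of Crispld1 overlap those of the antisense gene Gm16070, so its reads could not be told from those of Gm16070 without a known strand setting, whereas no exon overlap was found for the other 5.

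Crisp1 and Crisp3 are close copies. Their longest open reading frames were 89.5% identical over 714 aligned bases, and their predicted proteins were 78.5% identical over 237 residues. Every other pair shared runs of at most 18 bases, and the next highest protein identity was 59.3%, between Crispld1 and Crispld2. Cysteines, which name the family, numbered 16 in the predicted Crisp1, Crisp2 and Crisp3 proteins, 19 in Crisp4, 25 in Crispld1 and 26 in Crispld2. The likeness of Crisp1 and Crisp3 extended upstream of the genes. The 250 bases before each start site are shown because 239 of them (95.6%) are the same, although the level of the genes differed by several orders of magnitude; they cover chr17:40319208-40319457 for Crisp1 and chr17:40242289-40242538 for Crisp3 (minus strand, RefSeq, GRCm38.p6), and capitals mark the 11 positions that differ.
Crisp1: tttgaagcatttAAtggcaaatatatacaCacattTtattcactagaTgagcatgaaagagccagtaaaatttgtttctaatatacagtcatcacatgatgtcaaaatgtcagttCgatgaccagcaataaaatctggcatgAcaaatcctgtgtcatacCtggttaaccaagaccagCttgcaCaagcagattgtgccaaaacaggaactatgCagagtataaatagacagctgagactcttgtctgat
Crisp3: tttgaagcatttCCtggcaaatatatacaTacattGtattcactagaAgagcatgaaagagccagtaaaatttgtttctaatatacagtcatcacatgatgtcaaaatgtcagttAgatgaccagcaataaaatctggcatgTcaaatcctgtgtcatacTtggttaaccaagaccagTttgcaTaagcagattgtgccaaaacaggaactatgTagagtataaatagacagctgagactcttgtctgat
Counted from 1 at the first base shown, the difference nearest to the start site was C215T (Crisp1 base first), 36 bases before it. Both sequences hold the TATA box TATAAA at -31 to -26, which 13.0% of 27025 mouse promoter windows of this length also hold (either strand). Within the coding sequence, bases 197 to 313 of the reading frame hold the longest run shared by the pair, of 57 bases, and are shown because a read inside that run has the same letters in both genes (GENCODE M21 transcripts, capitals mark the 3 differing bases).
Crisp1: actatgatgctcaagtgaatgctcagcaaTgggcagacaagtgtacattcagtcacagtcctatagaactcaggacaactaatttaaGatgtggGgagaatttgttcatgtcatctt
Crisp3: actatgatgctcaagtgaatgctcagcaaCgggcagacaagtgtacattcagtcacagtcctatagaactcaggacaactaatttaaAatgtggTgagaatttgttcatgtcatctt
Over the whole reading frames 8 windows of 50 bases were identical between Crisp1 and Crisp3, against 0 for every other pair, so that the Crisp3 values below are uncertain.

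Crispld2 had a different kind of start. Its 250 upstream bases (chr8:119992188-119992437, plus strand, RefSeq, GRCm38.p6) had 63.2% GC and no TATAAA, whereas Crisp1 had 36.8% GC, Crisp3 35.6%, and the median promoter 52.0%. The sequence is shown because Crispld2 was the member called between genotypes, and capitals mark GAGGC or GGGGC on either strand, the letters of the core of the known Plag1 binding motif.
Crispld2: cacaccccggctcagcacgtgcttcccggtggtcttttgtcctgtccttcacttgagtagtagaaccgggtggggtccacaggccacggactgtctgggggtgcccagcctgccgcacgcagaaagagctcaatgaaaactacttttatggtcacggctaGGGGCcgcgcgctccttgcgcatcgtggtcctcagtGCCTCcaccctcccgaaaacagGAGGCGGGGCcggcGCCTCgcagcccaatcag
There were 5 such matches, at 90, 54, 32, 27 and 18 bases before the start (first base of each), but at least 1 match was present in 75.9% of all promoter windows. The full motif (the core, then 6 to 8 bases, then AGG or GGG followed by G or T, on either strand) matched in 0 of the 5 members with a window and in 16.6% of all windows. The core letters were also present in Crisp2 (-5 to -1) and Crisp4 (-52 to -48), which were not called, and absent from Crisp1 and Crisp3. Among the other members, Crisp2 held TATAAA at -118 to -113 and at -97 to -92, and Crisp4 held the androgen receptor half-site TGTTCT (found in 16.2% of windows) at -217 to -212. Absence of a match says only that these letters are not in the window. A window for Crispld1 was not used here.

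Mean levels per length ranked the 6 genes in the same order in every genotype. Crisp1 stood far above the rest, at 14951 ± 4417 CPM per kilobase of exons in KO, 19740 ± 2565 in HET and 20319 ± 1784 in WT (SD, n = 5 each). Crisp4 followed at 67.7 ± 7.91 CPM per kilobase in KO, 66.9 ± 3.98 in HET and 61.9 ± 3.36 in WT. Crispld2 came next at 11.7 ± 1.65 CPM per kilobase in KO, 8.73 ± 0.602 in HET and 8.06 ± 0.504 in WT. The germ cell member Crisp2 averaged 6.73 ± 3.21 CPM per kilobase in KO, 4.45 ± 0.84 in HET and 3.8 ± 0.985 in WT, and its libraries overlapped those of Crispld2 in KO only. Crispld1 averaged 2.57 ± 0.515 CPM per kilobase in KO, 2.26 ± 0.105 in HET and 2.45 ± 0.324 in WT, and its single libraries overlapped those of Crisp2 in KO and WT but not in HET. Crisp3 was lowest, at 0.847 ± 0.16 CPM per kilobase in KO, 1.07 ± 0.154 in HET and 1.07 ± 0.158 in WT. Crisp1 alone took 2.14 ± 0.58% of all counts in KO, 2.74 ± 0.337% in HET and 2.88 ± 0.242% in WT, or 534160 to 971735 counts in a library, while Crisp3 had 29 to 52 counts.

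**Figure D1:**
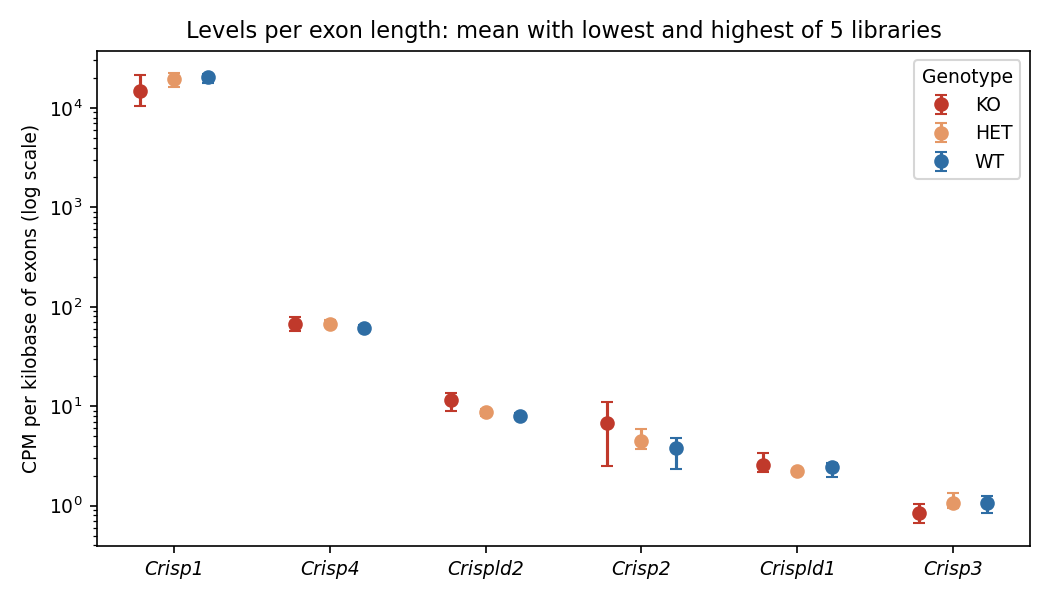
Level of each gene in CPM per kilobase of exons on a log axis, by genotype; points are means and bars run between the lowest and highest of 5 libraries. Crisp1 lies near 20319 CPM per kilobase in WT and Crisp3 near 1.07, with Crisp4, Crispld2, Crisp2 and Crispld1 between them in that order.

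Between genotypes, 1 of the 6 genes passed the test. Crispld2 rose in KO against WT, where 6% of all 19388 genes tested were called (4.4% higher and 1.6% lower), and it rose in KO against HET, where 1.96% were called (1.61% higher and 0.351% lower). In HET against WT, 0 members and 0 genes (0%) were called by edgeR, with 854 genes at an unadjusted p under 0.05 and 1 gene called by DESeq2. The 3 comparisons share libraries and are not independent of each other. In this bulk tissue, fewer cells of a type and less RNA per cell cannot be told apart.

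**Figure D2:**
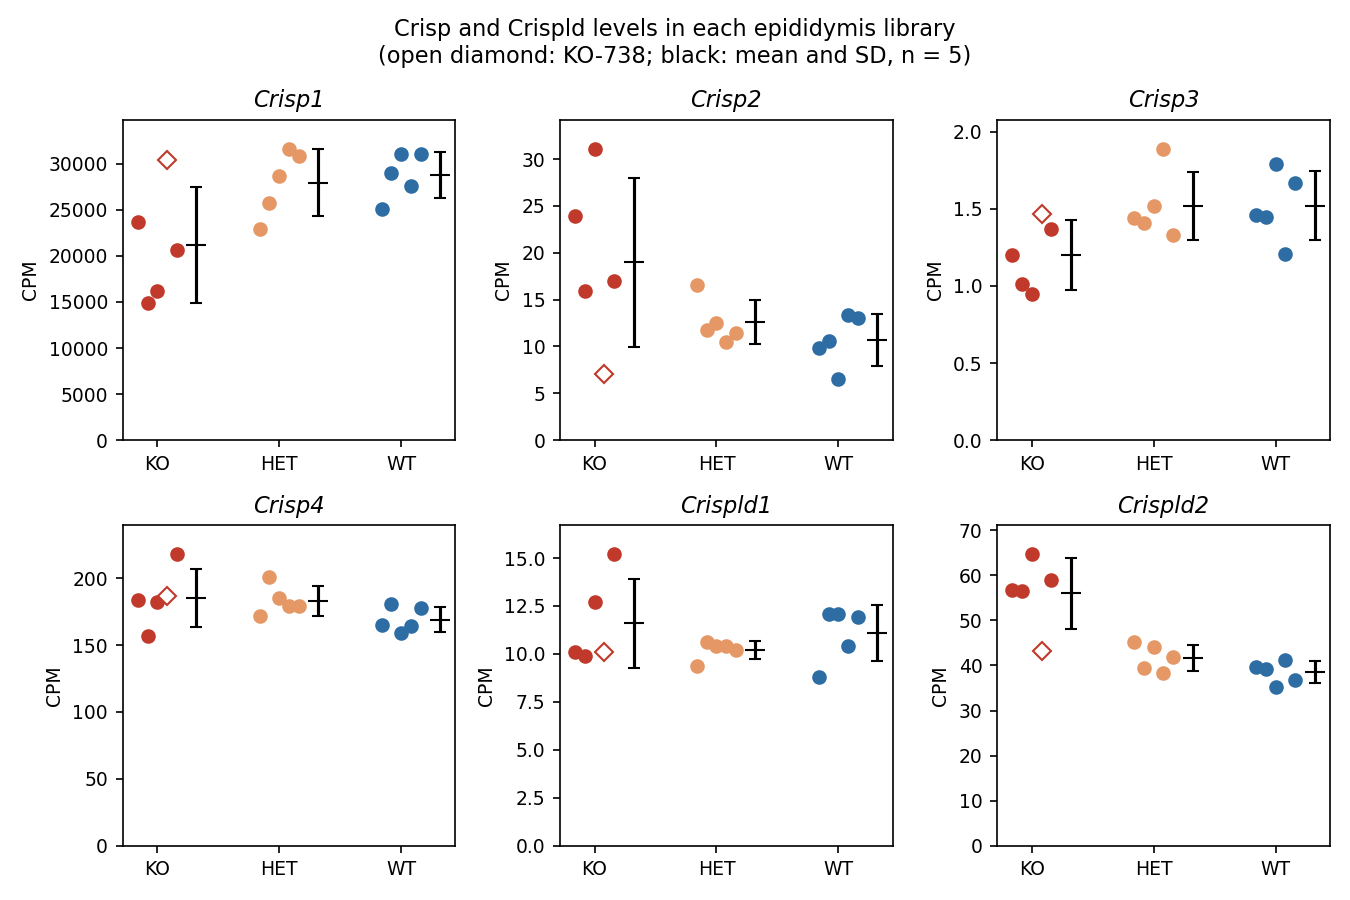
CPM of each gene in every library, with KO, HET and WT from left to right; the open diamond is KO-738 and the black bars are mean and SD (n = 5). All 5 KO libraries of Crispld2 lie above the WT libraries, and KO-738 lies with WT for Crisp1 and Crisp2.

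Crisp1, the main epididymal member, varied more among the KO animals than among the HET or WT animals. It stood at 23717, 14933, 16176, 30435 and 20595 CPM in KO-694, KO-695, KO-696, KO-738 and KO-739. The libraries HET-692, HET-693, HET-715, HET-718 and HET-735 had 22871, 25758, 28707, 31618 and 30803 CPM, and WT-709, WT-719, WT-720, WT-723 and WT-726 had 25118, 29004, 31088, 27572 and 31078 CPM; values of other genes are given in the same order of animals. Every KO library but KO-738 lay below every WT library, KO-738 lay within the WT range, and the HET and WT ranges overlapped. The mean was 21171 ± 6255 CPM in KO, 27951 ± 3632 CPM in HET and 28772 ± 2526 CPM in WT (SD, n = 5 each), and the coefficient of variation was 29.5% in KO, 13% in HET and 8.78% in WT. The log2 fold change was -0.44 ± 0.16 for KO against WT (95% interval -0.79 to -0.09 for this gene alone, edgeR adjusted p = 0.113) and -0.40 ± 0.16 for KO against HET (edgeR adjusted p = 0.174), neither of which passed. It was -0.04 ± 0.16 for HET against WT (edgeR adjusted p = 0.999). Without KO-738, Crisp1 was lower in KO than in WT, by a log2 fold change of -0.61 (edgeR adjusted p = 0.00802), and lower than in HET, at -0.56 (edgeR adjusted p = 0.0165). KO-738 had the highest Crisp1 of the KO libraries, so leaving it out widens these differences by construction. Over all genes, that fit called 2923 in KO against WT, against 1163 with every library.

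Animal-number range moved with Crisp1 as well. Its 3 KO libraries numbered below 700 had 14933 to 23717 CPM and the 2 above had 20595 to 30435 CPM, while its 2 HET libraries below 700 had 22871 to 25758 CPM and the 3 above had 28707 to 31618 CPM. The HET ranges did not overlap, and both lower-numbered means lay under the higher-numbered ones. With the number range as a term the log2 fold change for KO against WT was -0.22 ± 0.15 (edgeR adjusted p = 0.478), and among animals numbered above 700 it was -0.17 ± 0.14 (edgeR adjusted p = 0.565); for KO against HET it was -0.33 and -0.23 (edgeR adjusted p = 0.182 and 0.664). With 1 surrogate variable it was -0.15 for KO against WT and -0.20 for KO against HET (edgeR adjusted p = 0.707 and 0.639). Markers of the initial segment and caput epithelium did not pass the test between KO and WT in any of 13 genes, with a median log2 fold change of 0.07, against -0.01 over all genes. Of 8 markers of corpus, cauda and vas deferens, Upk1b (0.58 ± 0.10, edgeR adjusted p = 0.00668) and Krt20 (1.68 ± 0.32, 0.00857) rose, whereas Hoxd10 (-0.60 ± 0.17, 0.0494) and Slc26a3 (-0.35 ± 0.10, 0.0476) fell in KO against WT; these 8 summed to 94.4 to 116 CPM in KO, 100 to 114 CPM in HET, against 106 to 113 CPM in WT. The part of regional makeup in the Crisp1 values was not tested.

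Crisp4, the other sperm-binding member of the epididymal epithelium, was called in no comparison. Its levels were 184, 157, 182, 187 and 218 CPM in the KO libraries, 172, 201, 185, 179 and 179 CPM in HET and 165, 181, 159, 164 and 178 CPM in WT. The KO libraries lay on both sides of the WT range, with KO-695 below it and the other 4 above it. The log2 fold change was 0.13 ± 0.07 for KO against WT (95% interval -0.02 to 0.28, edgeR adjusted p = 0.282), 0.11 ± 0.07 for HET against WT and 0.02 ± 0.07 for KO against HET (edgeR adjusted p = 0.981 and 0.923). For KO against WT it was 0.26 ± 0.07 among animals numbered above 700 (edgeR adjusted p = 0.134), and over fits without 1 library it ran from 0.07 without KO-739 to 0.19 without KO-695 (edgeR adjusted p = 0.561 and 0.0757). Crisp4 did not follow Crisp1 across libraries, with a Pearson's r of 0.03 between their log2 CPM values over all 15.

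Crisp3 had 1.2, 1.01, 0.947, 1.47 and 1.37 CPM in KO, 1.44, 1.41, 1.52, 1.89 and 1.33 CPM in HET and 1.46, 1.45, 1.79, 1.21 and 1.67 CPM in WT. Its 3 lowest libraries were the KO animals numbered below 700, and the other 2 KO libraries lay within the WT range. The log2 fold change was -0.34 ± 0.16 for KO against WT (95% interval -0.69 to 0.01, edgeR adjusted p = 0.221), -0.35 ± 0.16 for KO against HET (edgeR adjusted p = 0.242) and 0.00 ± 0.16 for HET against WT (edgeR adjusted p = 0.999). For KO against WT it was -0.18 ± 0.18 with the animal-number range as a term and -0.09 ± 0.21 among animals numbered above 700 (edgeR adjusted p = 0.648 and 0.874), and for KO against HET it was -0.13 ± 0.23 above 700 (edgeR adjusted p = 0.901). Crisp3 counts followed those of its copy Crisp1, at 48.4 to 67.4 Crisp3 counts per 1000000 Crisp1 counts in KO (median 58.5), 43.3 to 63 in HET (median 54.8) and 43.7 to 58.1 in WT (median 53.8), and these ranges overlapped. Pearson's r between Crisp1 and Crisp3 in log2 CPM was 0.82 and Spearman's rho 0.78 over the 15 libraries, which share depth and preparation. Pearson's r of Crisp3 was also -0.8 with Crispld2 and -0.72 with Crisp2, where Crisp1 itself had -0.85 and -0.72. With Dpp6 it was 0.912, but Dpp6 was picked as the gene most like Crisp3, so a high value was fixed by that choice. Whether the Crisp3 counts include reads of Crisp1 was not tested. Of 5 markers of salivary and lacrimal glands, where Crisp3 is best known, Smr3a, Prol1 and Bpifa2 were at or near 0 in every library, Amy1 and Aqp5 were tested, and Aqp5, a water channel gene, fell in KO against WT (-0.73 ± 0.15, edgeR adjusted p = 0.0126). These markers summed to 9.4 to 10 CPM in KO, 6.95 to 10.1 CPM in HET, against 8.38 to 10.6 CPM in WT.

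Crisp2, the germ cell member, stood at 23.9, 15.9, 31.1, 7.05 and 17 CPM in KO-694, KO-695, KO-696, KO-738 and KO-739. The HET libraries had 16.6, 11.8, 12.5, 10.5 and 11.4 CPM, and the WT libraries had 9.83, 10.6, 6.57, 13.4 and 13 CPM. All KO libraries but KO-738 lay above every WT library, and KO-738 lay near the lowest of all. The coefficient of variation was 47.6% in KO, 18.9% in HET and 25.9% in WT. The log2 fold change was 0.83 ± 0.30 for KO against WT (95% interval 0.18 to 1.47, edgeR adjusted p = 0.111), 0.59 ± 0.30 for KO against HET (edgeR adjusted p = 0.276) and 0.23 ± 0.30 for HET against WT (edgeR adjusted p = 0.997). With DESeq2 the same size of change in KO against WT passed (adjusted p = 0.0406). Leaving out KO-738, the KO library with the lowest Crisp2, widens the difference by construction. The log2 fold change was then 1.04 for KO against WT (edgeR adjusted p = 0.00697) and 0.81 for KO against HET (edgeR adjusted p = 0.0302). That fit called 2923 genes in KO against WT, against 1163 with every library. With the animal-number range as a term Crisp2 stood at 0.38 ± 0.32 (edgeR adjusted p = 0.581) for KO against WT and within the range above 700 at 0.18 ± 0.33 (edgeR adjusted p = 0.831). For KO against HET these were 0.41 and 0.10 (edgeR adjusted p = 0.47 and 0.958), and with 1 surrogate variable Crisp2 stood at 0.49 for KO against WT and 0.37 for KO against HET (edgeR adjusted p = 0.567 and 0.724).

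The level of Crisp2 moved with that of other sperm and germ cell genes. The 16 listed markers, among them the sperm chromatin genes Prm1, Prm2, Tnp1 and Tnp2, summed to 143, 153, 238, 49.3 and 87.5 CPM in KO-694, KO-695, KO-696, KO-738 and KO-739. Their sums were 129, 86.2, 75.8, 72.3 and 71.2 CPM in HET and 66.1, 63.6, 44.9, 103 and 79.7 CPM in WT. KO-696 had the highest Crisp2 and the highest sum, and KO-738 and WT-720 had the lowest of both. Of 15 markers tested, 3 rose in KO against WT, namely the germ cell helicase gene Ddx4, the sperm lactate dehydrogenase gene Ldhc and the spermatogenesis gene Meig1, with a median log2 fold change of 1.04 over the 15, against -0.01 over all genes. None of the 16 was at 0 in all libraries. The part of germ cell RNA in the Crisp2 values was not tested.

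Crispld2, the mesenchymal member, was the gene that passed. It stood at 56.7, 56.5, 64.7, 43.2 and 59 CPM in KO-694, KO-695, KO-696, KO-738 and KO-739. The HET libraries had 45.1, 39.5, 44, 38.3 and 41.8 CPM, and the WT libraries had 39.7, 39.3, 35.3, 41.3 and 36.8 CPM. All 5 KO libraries lay above every WT library, 4 of 5 lay above every HET library, and KO-738 lay within the HET range. Its mean was 56 ± 7.9 CPM in KO, 41.7 ± 2.88 CPM in HET and 38.5 ± 2.41 CPM in WT (SD, n = 5 each). Crispld2 was 1.46-fold higher in KO than in WT (95% interval 1.28 to 1.65), with a log2 fold change of 0.54 ± 0.09 (95% interval 0.36 to 0.72, edgeR adjusted p = 0.00425). It was also higher in KO than in HET, by 0.42 ± 0.09 (95% interval 0.24 to 0.61, edgeR adjusted p = 0.0257). For HET against WT, where 3 of 5 HET libraries lay above every WT library, the log2 fold change was 0.12 ± 0.09 (edgeR adjusted p = 0.981).

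The call of Crispld2 in KO against WT held in 15 of 15 fits that left out 1 library (log2 fold change 0.48 to 0.63) and with the animal-number range as a term (0.46 ± 0.10, edgeR adjusted p = 0.0381), but not among animals numbered above 700, where 2 KO libraries remained (0.41 ± 0.11, edgeR adjusted p = 0.138), nor with 1 surrogate variable (0.43, edgeR adjusted p = 0.13). The call in KO against HET was lost without KO-696, HET-693, HET-715, HET-718 or HET-735, with edgeR adjusted p-values of 0.0642 to 0.0757, and also among animals numbered above 700 (0.33), with 1 surrogate variable (0.35) and in the 2-group fit (0.44), with edgeR adjusted p-values of 0.364, 0.16 and 0.0842.

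Fibroblast genes moved with Crispld2. The 8 listed markers summed to 2685, 3022, 3442, 1960 and 3498 CPM in KO-694, KO-695, KO-696, KO-738 and KO-739. Their sums were 2164, 1893, 2035, 1905 and 1769 CPM for HET libraries, against 1659, 1824, 2004, 1675 and 1605 CPM for WT libraries. KO-738 lay within the HET and WT ranges, and the other 4 KO libraries lay above both. Of the 8 markers, 7 rose in KO against WT, with a median log2 fold change over the 8 of 0.83, against -0.01 over all genes. Among the 7 were Col1a2 and Col3a1, which encode collagen chains, and Sparc, a collagen-binding matrix protein. Those 3 also rose in KO against HET. Endothelial markers summed to 140 to 203 CPM in KO, 92 to 128 CPM in HET, against 84.8 to 109 CPM in WT, with 5 of 6 higher in KO against WT. Macrophage markers summed to 77.6 to 140 CPM in KO, 77.2 to 90.2 CPM in HET, against 66 to 80 CPM in WT, with 4 of 6 higher in KO against WT. The 5 B cell markers summed to 1.06 to 2.86 CPM in KO, 1.5 to 1.78 CPM in HET, against 0.489 to 0.806 CPM in WT, and both tested ones, Cd79b and Ighm, rose in KO against WT. In none of 5 smooth muscle markers was a change called, and they summed to 2210 to 2490 CPM in KO, 1439 to 2332 CPM in HET, against 1994 to 2514 CPM in WT. The part of fibroblasts, vessels and immune cells in the Crispld2 values was not tested.

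**Figure D3:**
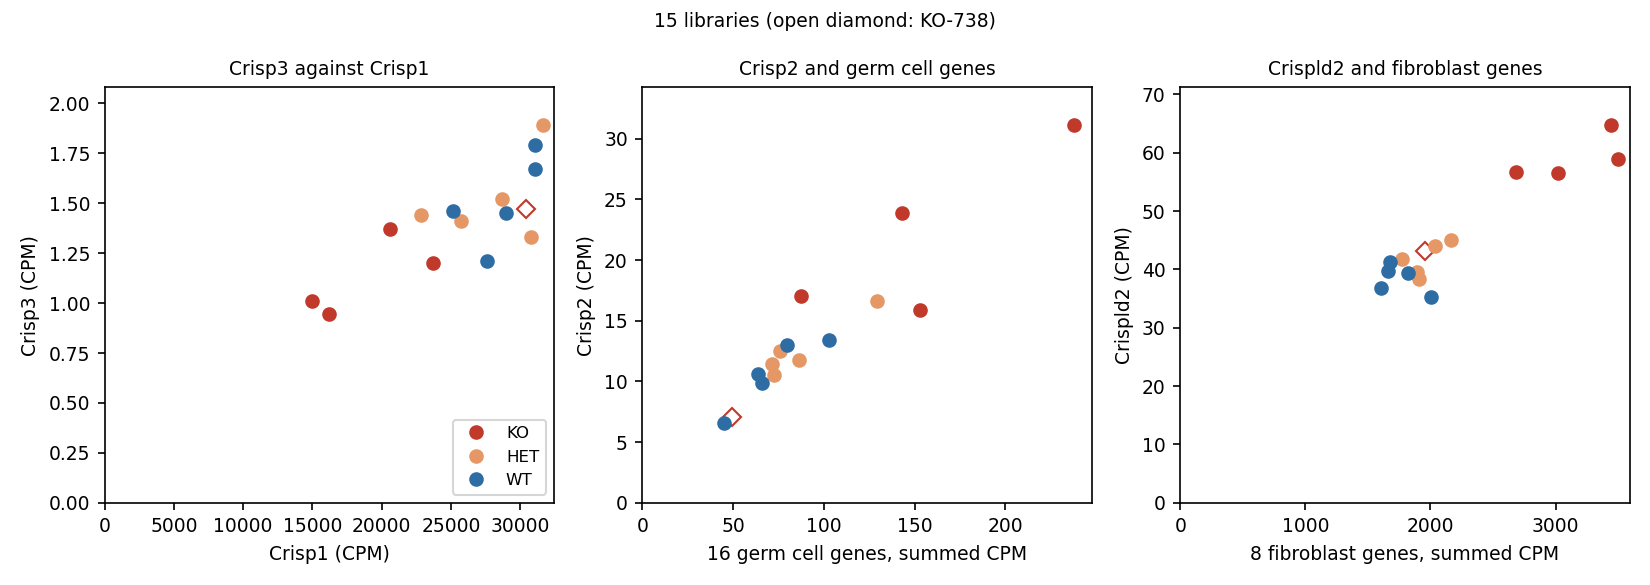
The 15 libraries plotted as Crisp3 against Crisp1 (CPM), Crisp2 against the summed CPM of 16 germ cell genes and Crispld2 against the summed CPM of 8 fibroblast genes; the open diamond is KO-738. KO-738 lies among the HET and WT libraries in all 3 panels, and the other 4 KO libraries hold the highest Crispld2 (56.5 to 64.7 CPM) with the highest fibroblast sums (2685 to 3498 CPM).

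Crispld1, the second LCCL-domain member, had 10.1, 9.87, 12.7, 10.1 and 15.2 CPM in KO, 9.38, 10.6, 10.4, 10.4 and 10.2 CPM in HET and 8.79, 12.1, 12.1, 10.4 and 11.9 CPM in WT. The groups overlapped, and only KO-696 and KO-739 lay above the WT range. The log2 fold change was 0.07 ± 0.12 for KO against WT (95% interval -0.19 to 0.32, edgeR adjusted p = 0.781), -0.12 ± 0.12 for HET against WT and 0.19 ± 0.12 for KO against HET (edgeR adjusted p = 0.988 and 0.413). The library with the highest Crispld1, KO-739, also had the highest skeletal muscle sum, with 5 markers at 29.2 to 3198 CPM in KO (median 45.7), 20 to 72.3 CPM in HET, against 34.1 to 70.8 CPM in WT and a change called in none of the 4 tested. Without KO-739 the log2 fold change of Crispld1 for KO against WT was -0.05, and it was 0.15 ± 0.14 with the animal-number range as a term and 0.20 ± 0.16 above 700 (edgeR adjusted p = 0.629 and 0.57). Fat cell markers, of which none of 5 was called, summed to 7.11 to 162 CPM in KO, 4.58 to 34.7 CPM in HET, against 6.93 to 29 CPM in WT.

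**Figure D4:**
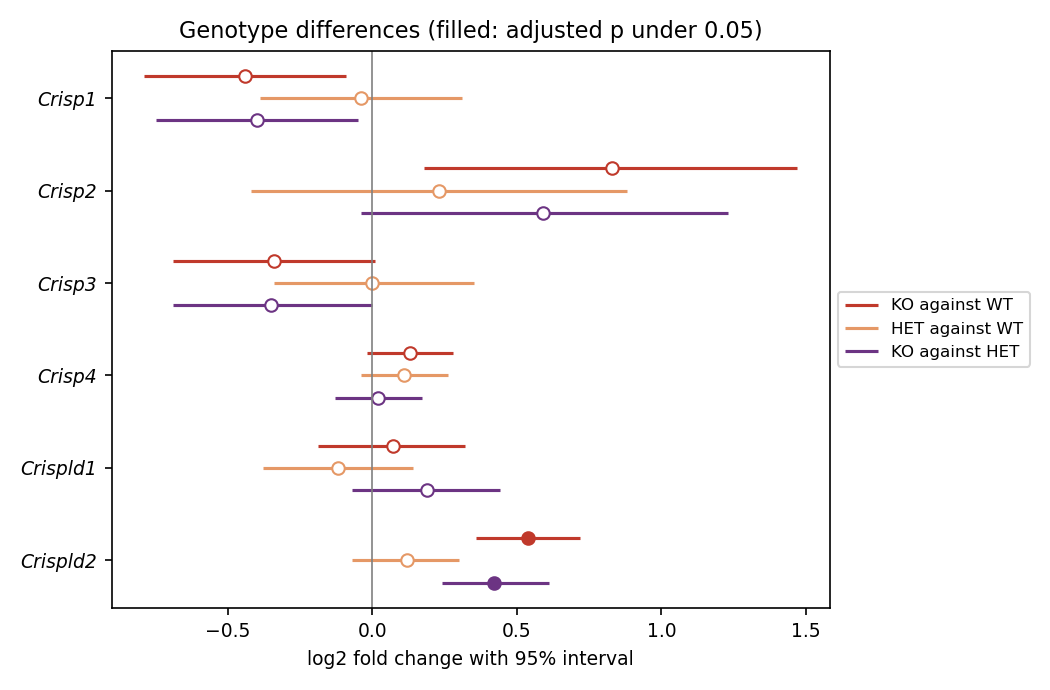
Log2 fold change of each gene with its 95% interval for KO against WT, HET against WT and KO against HET; filled points have an edgeR adjusted p under 0.05. Filled points appear for Crispld2 at 0.54 (KO against WT) and 0.42 (KO against HET). For KO against WT, the intervals of Crisp1 and Crisp2 lie on opposite sides of 0, with open points.

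The other mouse genes with a CAP domain gave a partial view, since 5 of 9 had enough counts to be tested. Pi15, a secreted peptidase inhibitor gene that lies 96.1 kb from Crispld1, had 42.5, 32, 47.4, 31.4 and 55.7 CPM in KO, 28.8, 36.2, 32.3, 30.9 and 31.7 CPM in HET and 26.7, 32.9, 29.4, 26.8 and 33.7 CPM in WT. KO-695 and KO-738 lay within the WT range and the other 3 KO libraries lay above it. Pi15 rose in KO against WT (0.48 ± 0.14, edgeR adjusted p = 0.0493), but of the 15 fits that left out 1 library it was called only in those without KO-695 or KO-738. The call was also lost with the animal-number range as a term (0.50, edgeR adjusted p = 0.145), among animals numbered above 700 (0.55, 0.2), with 1 surrogate variable (0.55, 0.252), in the 2-group fit (0.49, 0.116) and with no filter on low counts (0.49, 0.0721). Pi16, known from adventitial fibroblasts, had a log2 fold change of 0.56 ± 0.17 (edgeR adjusted p = 0.0632) and did not pass. The median over the 5, with Glipr1, Glipr2 and Clec18a, was 0.37 in KO against WT, 0.16 in HET against WT and 0.20 in KO against HET. Over all genes it was -0.01, 0.01 and -0.01 in the same order. Of the 5, 0 were called for HET against WT or KO against HET. Glipr1l1, Glipr1l2, Glipr1l3 and R3hdml had too few counts.

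Of 12 listed genes of channels that Crisp proteins are reported to act on, 10 were tested. Their median log2 fold change in KO against WT was 0.69, against -0.01 over all genes. All 12 summed to 116 to 155 CPM in KO, 145 to 167 CPM in HET, against 147 to 165 CPM in WT. Trpv6, an epithelial calcium channel gene, made up most of that sum, with 106 ± 19.8 CPM in KO, 133 ± 9.4 CPM in HET and 131 ± 5.9 CPM in WT (SD, n = 5 each). Its log2 fold change had the opposite sign, at -0.30 ± 0.10 for KO against WT and -0.32 ± 0.10 for KO against HET (edgeR adjusted p = 0.0768 and 0.085), and did not pass. Trpm8, the channel inhibited by Crisp4, was not tested and averaged 0.0889 CPM in KO, 0.0779 CPM in HET and 0.044 CPM in WT. The 2 genes that rose in KO against WT, where 4.4% of all genes tested rose, encode small proteins of the sperm calcium channel CatSper. Catsperz had 1.08, 2.18, 2.22, 0.345 and 1.85 CPM in KO, 0.97, 0.398, 0.67, 0.546 and 0.602 CPM in HET and 0.538, 0.702, 0.5, 0.475 and 0.57 CPM in WT, with a log2 fold change of 1.48 ± 0.38 for KO against WT (edgeR adjusted p = 0.0347). Efcab9 had 1.16, 1.17, 1.62, 0.501 and 0.627 CPM in KO, 0.235, 0.615, 0.317, 0.437 and 0.301 CPM in HET and 0.422, 0.451, 0.5, 0.548 and 0.163 CPM in WT. Its log2 fold change was 1.28 ± 0.35 for KO against WT (edgeR adjusted p = 0.0442) and 1.42 ± 0.35 for KO against HET (edgeR adjusted p = 0.0499). KO-738 had the lowest KO value of both genes, and for Efcab9 it lay within the WT range. Leaving out 1 library kept the call of Catsperz in 7 of 15 fits, lost without KO-695, KO-696, KO-739 or any WT library, and kept that of Efcab9 in 4 of 15, those without KO-738, KO-739, HET-692 or HET-693. For KO against HET, Efcab9 was called in the 3 of 15 fits without KO-738, KO-739 or WT-726. For KO against WT, Catsperz also lost its call with the animal-number range as a term (1.14, edgeR adjusted p = 0.207), among animals numbered above 700 (1.0, 0.319), with 1 surrogate variable (0.86, 0.41), in the 2-group fit (1.49, 0.0907) and with voom (1.25, 0.051). Efcab9 lost it in the first 4 of these settings, at 0.70 (edgeR adjusted p = 0.35), 0.43 (0.599), 0.87 (0.392) and 1.29 (0.0941). For KO against HET the same settings gave Efcab9 1.22 (edgeR adjusted p = 0.0602), 0.70 (0.63), 1.12 (0.296) and 1.43 (0.108).

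The genes most like each member in log2 CPM over the 15 libraries are given as a description, since the libraries compared share genotypes and preparation. For Crisp1 these were Ctnna2 (Pearson's r 0.965), Gramd2 (0.96) and Cwh43 (0.959), and within genotypes r with Ctnna2 was 0.952. For Crisp2 they were Ankef1 (0.974), Fhl4 (0.966) and Galntl5 (0.958), with 0.966 within genotypes for Ankef1. For Crispld2 they were Itih5 (0.975), Ntrk2, the receptor of the growth factor BDNF (0.97), and Sfrp1, a secreted Wnt inhibitor (0.963), with 0.906 within genotypes for Itih5. Likeness was weaker for Crisp3, led by Dpp6 (0.912), Aig1 (0.902) and Akr1c13 (0.876), for Crisp4, led by Rpl9 (0.879), Blzf1 (0.878) and the beta-defensin gene Defb21 (0.878), and for Crispld1, led by Scarb2 (0.843), Ptprr (0.83) and Pla2g7 (0.826). Among the members themselves, Crispld2 and Crisp2 varied together (r = 0.82, rho = 0.76 over 15 libraries), and both ran against Crisp1 (r = -0.85 and -0.72). KO-738 lay within the WT range for Crisp1 and Crisp2, whereas for Crispld2 it lay within the HET range and above every WT library.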

How the data were processed

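RNA from 15 whole epididymides was sequenced, and the authors deposited raw counts per NCBI Gene ID. Reads were aligned to build GRCm38.p6 and counted per gene with tools that, per the submitters' processing notes, were FastQC, HISAT2 2.0.5 and featureCounts (Subread 1.4.6p5); the strand setting, annotation release and handling of multi-mapped reads are not given in the sources used here. Of 41591 IDs, 40290 (96.9%) were named through a RefSeq table. Counts were tested with edgeR 4.0.16 in R 4.3.3 (TMM factors, filterByExpr on genotype, robust quasi-likelihood, 1 fit of 15 libraries, 12 residual degrees of freedom), two-sided, with Benjamini-Hochberg adjustment over 19388 genes and a threshold of 0.05. The biological coefficient of variation was 16.3%. CPM use TMM library sizes, log2 CPM a prior count of 2, and levels per kilobase the merged exons of GENCODE M21; intervals of log2 fold changes cover 95% for 1 gene. Replicates differed beyond sampling noise (chi-square per degree of freedom at least 5.58).

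Alternatives were other scaling factors, DESeq2 1.42.0, voom in limma 3.58.1, other filters, 2-group fits, the animal-number range, 1 surrogate variable from sva 3.50.0, libraries with over 1% ribosomal RNA left out, and each library left out. Named genes are the 6 members, Plag1, CAP domain and channel genes, marker genes, and the 3 most alike genes per member with a mean of at least 1 CPM. Members and lists were chosen with earlier results of these data known. Pi16, Trpv6, Pgk2 and the marker genes printed with values were chosen after their values were seen.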

Additional observations from a re-analysis of the deposited data

How the results depend on the processing

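Over 27 alternatives per gene and comparison, the direction for KO against WT stayed for Crisp1, Crisp2, Crisp3, Crisp4 and Crispld2; Crisp3 in HET against WT ran from -0.09 to 0.12 around 0.00. No paired analysis was possible because animal numbers are not shared between genotypes. Log2 fold changes for KO against WT, in the order without KO-738 and without libraries over 1% ribosomal RNA, were -0.61 and -0.61 for Crisp1 and 1.04 and 1.04 for Crisp2, all called, as was Crisp2 by DESeq2 (0.83). The fits without KO-738 and without libraries over 1% ribosomal RNA hold the same KO and WT libraries, since only KO-738 and HET-693 exceed that limit. They are therefore not separate checks of KO against WT. For KO against HET, Crisp1 was called in the same fits (-0.56 and -0.59), and Crisp2 without KO-738 (0.81). Leaving out each library in turn gave -0.61 to -0.34 for Crisp1 and 0.57 to 1.04 for Crisp2 in KO against WT, and -0.56 to -0.28 and 0.36 to 0.81 in KO against HET. Crispld2 lost its call in KO against WT among animals numbered above 700 (0.41) and with 1 surrogate variable (0.43), and in KO against HET in these fits (0.33 and 0.35), in the 2-group fit (0.44) and in 5 leave-one-out fits (range of all 0.39 to 0.52). Signs turned for Crispld1, KO against WT, without KO-739 (-0.05), with -0.05 to 0.13 over single libraries; for Crisp1, HET against WT, with voom (0.02), the number term (0.11), above 700 (0.06), the surrogate variable (0.05) and without HET-692 (0.01), with -0.10 to 0.01 over single libraries; for Crisp2, HET against WT, with the number term (-0.03); and for Crisp4, KO against HET, with voom (-0.01) and without KO-739 (-0.05), with -0.05 to 0.09 over single libraries. None of these values was called.

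Genes called in KO against WT numbered 1163, and 1930 with DESeq2, 177 with the number term, 0 above 700, 3 with the surrogate variable, 2722 without libraries over 1% ribosomal RNA, 287 in the 2-group fit and 318 (without KO-696) to 2923 (without KO-738) over single libraries. In KO against HET they numbered 380, and 1242 with DESeq2, 1909 with voom, 0 above 700, with the surrogate variable and in the 2-group fit, 1660 without libraries over 1% ribosomal RNA and 0 (without HET-735) to 2443 (without KO-738) over single libraries. In HET against WT DESeq2 called 1. Per kilobase of coding sequence, WT levels were 39306 CPM for Crisp1, 193 for Crisp4, 25.9 for Crispld2, 14.2 for Crisp2, 7.38 for Crispld1 and 2.1 for Crisp3, in the same order as per kilobase of exons. The cause of these changes was not tested. Crisp3 had 29 to 52 counts per library.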
